A study of Mus musculus with 6 samples.

Results

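The genes described here encode proteins of the milk fat globule coat and of the lipid droplet inside it: Xdh, Btn1a1, Plin2, Plin3, Mfge8, Cidea, Muc1, Muc15, Cd36 and Fabp3. They were chosen by name, and every probe set annotated to 1 of these symbols alone was taken. This gave 15 probe sets for 10 genes, out of 34945 probe sets with 1 gene and 18193 genes on the array. The arrays carried whole mammary gland RNA of 3 wild-type mice and 3 mice labelled Elf5 KO. Elf5 encodes a transcription factor of the ETS family, made in luminal cells. By the sample labels all 6 glands are from pregnancy day 17, whereas the text of the series speaks of lactation day 1, so the stage is left unstated here. The Elf5 allele, any Cre driver, the strain and the age of the mice are not given in the labels used here. The titles call the samples biological replicates of animals.

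Milk fat leaves the secretory cell of the mammary gland in an unusual way. Triglyceride droplets coated with perilipins move to the apical surface, and there the plasma membrane wraps around them, so that each globule is released inside a bilayer. Butyrophilin (Btn1a1), xanthine oxidoreductase (Xdh) and perilipin 2 (Plin2) are held to form a complex that joins the membrane to the droplet. Lactadherin (Mfge8), the mucins Muc1 and Muc15 and the fatty acid translocase Cd36 are further proteins of the globule membrane.

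The glands carried the markers of the labelled tissue. The caseins Csn1s1, Csn2, Csn3 and Csn1s2a read 7329.5 or more on every array, and the luminal markers Krt8, Krt18 and Epcam read between 1910 and 6462 on all 6 arrays. RNA quality differed between arrays. Control probe sets at both ends of the Gapdh transcript give a 3' to 5' ratio (the Gapdh ratio), near 1 in intact RNA, which lay between 0.833 and 1.09 in wild type. It was 0.802, 3.89 and 13.6 in KO arrays 1, 2 and 3. The same ratio for Actb was 1.20 to 2.04 for the wild-type arrays, against 1.58, 1.87 and 21.0 for KO arrays 1, 2 and 3, so by that control KO array 3 alone stood apart. The bright end of the arrays differed too: the Cre hybridisation control was at 27746, 19335 and 10208 for wild-type arrays 1, 2 and 3, against 11820, 12012 and 9854 for the KO arrays. Elf5 itself read 7244 to 12011 in wild type, against 3128 to 5616 in the KO (log2 difference -1.06, limma adjusted p = 0.109). Its dimmer probe set differed by -1.83.

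All 10 genes had a lower mean in the KO glands, with differences of -0.59 (Cd36) to -2.34 (Cidea) on the log2 scale and a median of -1.13 against 0.06 over the 10916 genes tested. The mean was lower for 46.1% of all genes, but for 89.0% of the 164 tested genes with a mean signal of 5000 or more (64.6% after quantile normalization, which gives all arrays the same distribution), and 8 of the 10 are that bright. In 7 of the 10 the KO was lower by 1 or more on the log2 scale, which held for 6.25% of all genes. None of the 10 passed after adjustment over all genes in limma (adjusted p = 0.0672 to 0.263), where 1.24% of genes passed and 0.11% passed as lower. Before adjustment, 8 of the 10 had p under 0.05, as did 21.8% of all genes. Arrays with the same replicate number deviated together, but the labels do not say that these numbers pair the animals. In the fit with that number as a block (the paired fit) 9 of the 10 genes fell (limma adjusted p = 0.0121 to 0.0412). The exception was Cd36 (limma adjusted p = 0.0649). In that fit 4.53% of all genes were called lower. With every probe set tested as a feature of its own, 0 of 17954 probe sets passed in the paired fit and in the unpaired fit (4841 and 3332 had an unadjusted p under 0.05), and the lowest adjusted p of a member in the paired fit was 0.0591.

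In 7 of the 10 genes the 3 KO values all lay under the 3 wild-type values, against 10.6% of all genes. The exceptions were Fabp3, Muc1 and Plin3, and in each of them KO array 1 alone reached into the wild-type range. KO array 1 was under every wild-type array for the same 7 genes and for 22.2% of all genes. The KO value was lower than the wild-type value of the same replicate number in all 3 pairs for all 10 genes, against 23.6% of all genes. For the 7 genes without overlap any pairing gives this result, so it adds nothing for them. The shares of 10.6%, 22.2% and 23.6% are over all genes, whereas 89.0% of the 164 bright genes had a lower mean. They were not counted among bright genes. A whole gland was measured, so fewer secretory cells and less RNA per cell cannot be told apart.

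**Figure D1:**
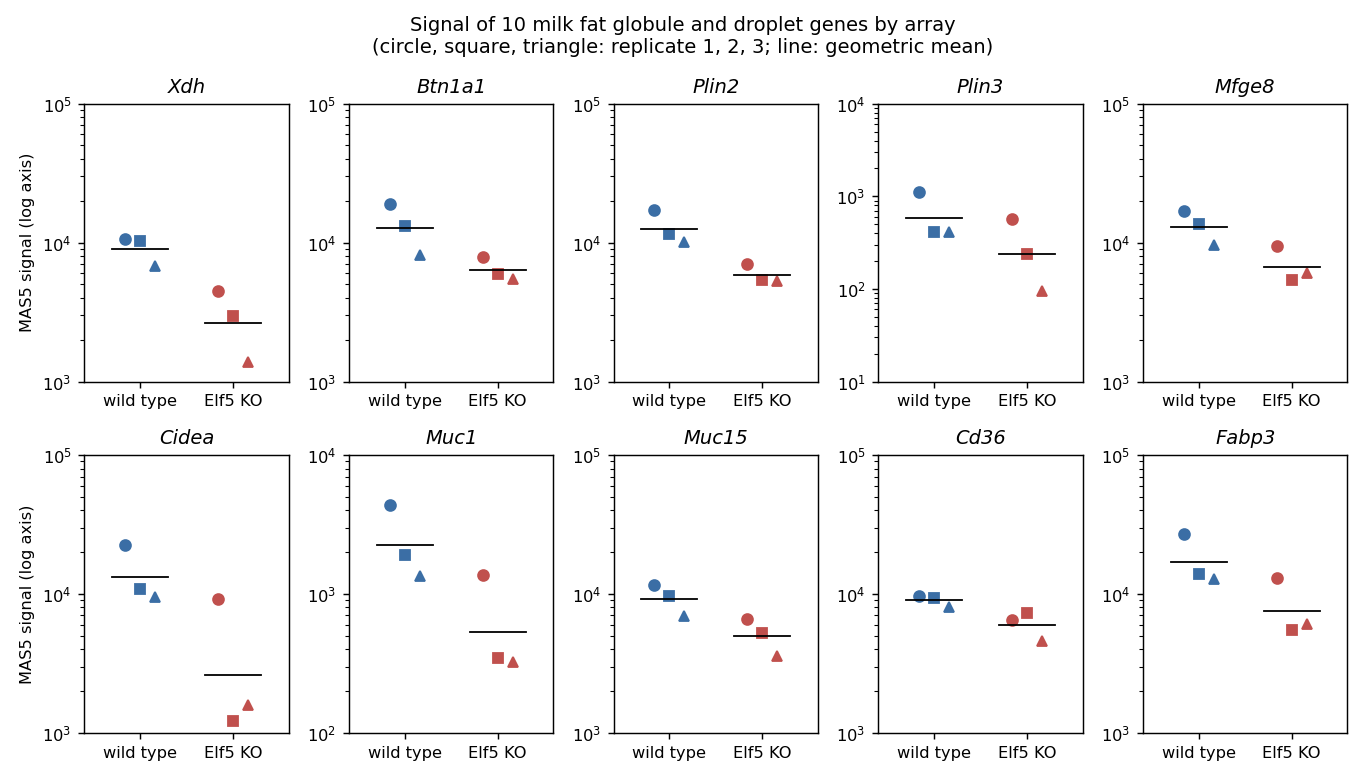
MAS5 signal of the 10 genes on a log axis in 3 wild-type (blue) and 3 Elf5 KO (red) arrays, 1 panel per gene, with the probe set that stands for the gene; symbols mark the replicate number and lines the geometric mean. The groups are apart in 7 panels, and in the panels of Fabp3, Muc1 and Plin3 the circle of KO array 1 reaches the wild-type range.

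Xdh, the redox enzyme that also has a structural role in globule release, had the smallest p of the 10 genes in the unpaired fit. Its probe set 1451006_at was at 10687, 10263 and 6748 for wild-type arrays 1, 2 and 3, against 4516, 2944 and 1383 for KO arrays 1, 2 and 3. The highest KO value was thus well under the lowest wild-type value. The means were 9233 ± 2162 and 2947 ± 1567 (SD, n = 3), or 31.9% of wild type. The difference was -1.77 ± 0.42 on the log2 scale (SE, n = 3 per group; limma adjusted p = 0.0672, and 0.0121 in the paired fit). The pairs with numbers 1, 2 and 3 differed by -1.24, -1.80 and -2.27.

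Btn1a1, the butyrophilin whose cytoplasmic tail binds Xdh, had 3 probe sets. The bright 1419175_a_at read 19024, 13206 and 8205 in wild type, against 7860, 5931 and 5453 in the KO. The groups did not overlap, but the highest KO value was close to the lowest wild-type value. The difference was -1.00 ± 0.34 (SE; limma adjusted p = 0.140, and 0.0179 in the paired fit). The dimmer 1451824_at read 417, 425 and 299 in wild type, against 141, 120 and 44.2 in the KO. Its difference was -1.85 ± 0.41 (SE, limma adjusted p = 0.133 with every probe set tested). In that fit 1419175_a_at had a limma adjusted p of 0.199. The dimmer 1425754_a_at read 472, 1839 and 345 in wild type, against 247, 35.4 and 13.4 in the KO. On this probe set the wild-type arrays spread widely. KO arrays 2 and 3 were under 43.8, the signal used below to leave out dim genes. The difference was -3.23 ± 0.86 (SE, limma adjusted p = 0.151 in the same fit to every probe set). All 3 Btn1a1 probe sets were lower in the KO without overlap, and the brightest differed least. Where the probe sets lie along the transcript was not analysed here.

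Plin2 coats the droplets of many cells and stays with the fat in the secreted globule. Its probe set 1448318_at read 17112, 11475 and 10104 in wild type, against 6990, 5374 and 5281 in the KO. The 3 KO values were close to each other and all well under the wild-type range. The means were 12897 ± 3714 and 5882 ± 961 (SD, n = 3), or 45.6% of wild type. The difference was -1.11 ± 0.29 (SE; limma adjusted p = 0.0824, and 0.0125 in the paired fit). Its relative Plin3, which moves from the cytosol onto young droplets, was far less even. Plin3 (1416424_at) read 1117, 417 and 415 in wild type, against 572, 241 and 95.1 in the KO. KO array 1 lay above wild-type arrays 2 and 3, so the groups overlapped. The difference was -1.22 with a 95% interval from -2.55 to 0.12 (limma adjusted p = 0.263, and 0.0412 in the paired fit).

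Cidea, a droplet protein that promotes droplet growth and has been tied to milk fat secretion, had the largest mean difference and an uneven KO group. Probe set 1417956_at read 22478, 10938 and 9498 in wild type, against 9236, 1219 and 1577 in the KO. KO array 1 was just under the lowest wild-type value, while KO arrays 2 and 3 were at 8.52% and 11.0% of the wild-type mean. The difference was -2.34 ± 0.68 (SE; limma adjusted p = 0.0995, and 0.0123 in the paired fit). Cidea is also abundant in brown fat, whose marker Ucp1 read 672, 13.8 and 191 in wild type, against 664, 406 and 187 in the KO. Ucp1 was highest in wild-type array 1 and lowest in wild-type array 2. Of 5 brown fat markers, 0 were lower in the KO, and their summed signal was 155 to 1638 in wild type, against 1100 to 1856 in the KO; their part in the Cidea signal was not tested.

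Mfge8, the secreted lactadherin that binds phosphatidylserine and integrins, was lower without overlap. Probe set 1420911_a_at read 16937, 13577 and 9663 in wild type, against 9394, 5378 and 6019 in the KO. KO array 1 was close to wild-type array 3, and the other KO arrays were lower. The difference was -0.95 ± 0.32 (SE; limma adjusted p = 0.137, and 0.0189 in the paired fit).

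Of the mucins, large glycoproteins of the apical membrane, Muc1 had the larger mean difference. Probe set 1449199_at read 4359, 1898 and 1347 in wild type, against 1361, 343 and 325 in the KO. KO array 1 was close to wild-type array 3, and KO arrays 2 and 3 were at 13.5% and 12.8% of the wild-type mean. The difference was -2.03 ± 0.59 (SE; limma adjusted p = 0.0998, and 0.0121 in the paired fit). Muc15 (1426941_at) read 11637, 9606 and 6973 in wild type, against 6551, 5280 and 3573 in the KO. Its groups did not overlap, with a small gap between KO array 1 and wild-type array 3. The difference was -0.88 ± 0.32 (SE; limma adjusted p = 0.161, and 0.0190 in the paired fit). Whether Muc1 and Muc15 differ from each other in this was not tested.

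Cd36, which takes up long-chain fatty acids, had the smallest difference, and its probe sets were uneven. The brightest, 1450883_a_at, read 9721, 9353 and 7994.5 in wild type, against 6453, 7286 and 4560 in the KO. These groups did not overlap, and the KO mean was 67.6% of wild type. The difference was -0.59 with a 95% interval from -1.20 to 0.03 (limma adjusted p = 0.249, and 0.0649 in the paired fit). On 1423166_at the wild-type arrays read 5866, 6572 and 6702 and the KO arrays 3847, 4975 and 4787, again without overlap (-0.50 ± 0.24, SE). On the dimmer 1450884_at they read 1262, 1116 and 1497 in wild type, against 947, 1027 and 2256 in the KO. KO array 3 was the highest there, and the difference was 0.02 ± 0.38 (SE, limma adjusted p = 0.980 with every probe set tested). In the 4 arrays with a Gapdh ratio under 2, without KO arrays 2 and 3, all 3 probe sets had a lower KO value, with differences of -0.48, -0.73 and -0.43. Cd36 is also made by adipocytes, capillary endothelium and macrophages. Of 7 adipocyte markers tested 6 had a higher mean in the KO, with a summed signal of 17524 to 20719 in wild type, against 23950 to 36419 in the KO. Of 8 macrophage markers 7 were higher, and their sum was 3794 to 5500 in wild type, against 6923 to 12808 in the KO. Of 9 endothelial markers 4 were higher, with sums of 1611 to 1776 and 1390 to 2196. None of these markers was at 0, and their part in the Cd36 signal was not tested.

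Fabp3 carries fatty acids in the cytosol of muscle and of the lactating gland. Its bright probe set 1416023_at read 26806, 13838 and 12921 in wild type, against 13093, 5490 and 6066 in the KO. KO array 1 lay just above wild-type array 3, and the other KO arrays were far lower. The difference was -1.15 ± 0.41 (SE; limma adjusted p = 0.150, and 0.0121 in the paired fit). The dim 1444844_at read 302, 190 and 131 in wild type, against 155, 21.5 and 31.8 in the KO (-1.66 ± 0.58, SE), with the same array inside the wild-type range. Of 8 striated muscle markers 8 had a higher mean in the KO. Their sums were 323, 4620 and 447 for wild-type arrays 1, 2 and 3, against 1914, 8363 and 3163 for the KO arrays. Their part in the Fabp3 signal was not tested.

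**Figure D2:**
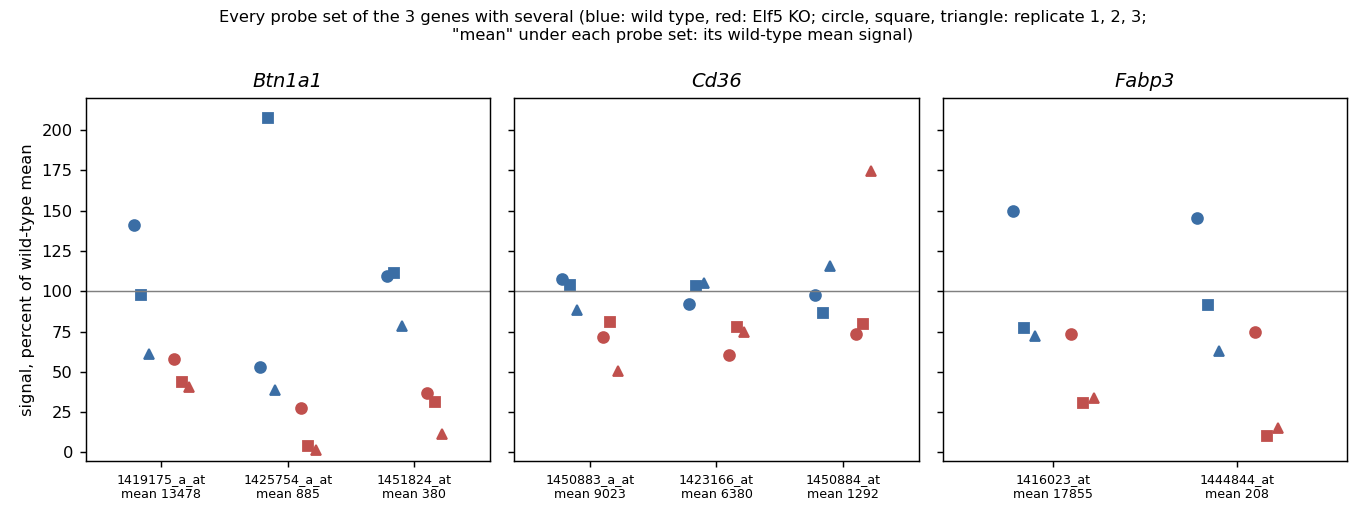
Signal of each array as a percent of the wild-type mean for the 8 probe sets of Btn1a1, Cd36 and Fabp3 (wild type blue, Elf5 KO red; symbols mark replicate numbers). The red points lie under the blue ones on all 3 Btn1a1 probe sets and on 2 of 3 for Cd36, while on 1450884_at KO array 3 stands at 175% of the wild-type mean.

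The order of the arrays is given beside that of the controls as a description only. The Cre control was nearly equal in KO arrays 1 and 2 (11820 and 12012). The Gapdh ratio spanned only 0.833 to 1.09 in wild type, so the order among such arrays decides little. Whether either control accounts for the differences was not tested. In all 10 genes the wild-type arrays stood, from high to low, in the order of the Cre control (19.1% of all genes), but the KO arrays did so in 1 of the 10, Cd36 (16.7% of all genes). In 6 of the 10 the KO arrays stood in the order of rising Gapdh ratio (24.8% of all genes), but the wild-type arrays did so in 0 of the 10 (16.5% of all genes). The 164 bright genes had a median difference of -0.49, and each of the 8 bright members lay below it. After quantile normalization that median was -0.08 and the 10 genes differed by -0.36 (Cd36) to -2.08 (Cidea), with a median of -0.73. The cut at 5000 was chosen after the data were seen.

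On the probe sets that stand for the 10 genes, the differences were smaller in the arrays with a low Gapdh ratio. In the 4 arrays with a Gapdh ratio under 2, which hold only 1 KO array, Xdh differed by -1.00, Plin2 by -0.84, Muc1 by -0.71, Btn1a1 by -0.69 and Cidea by -0.52. Muc15, Cd36, Mfge8 and Fabp3 differed by -0.49, -0.48, -0.47 and -0.36 there, and Plin3 by -0.02. The dimmer probe sets differed there by -1.32 and -1.39 for Btn1a1 and by -0.32 for Fabp3. For Cd36, 1423166_at and 1450884_at differed more there than over all arrays (-0.73 against -0.50, and -0.43 against 0.02). All 10 genes were lower, with a median of -0.51 against 0.04 over all genes. The 164 genes with a mean signal of 5000 or more had a median of -0.25 there, and 78.7% of them were lower. Each of the 8 members that bright lay below that median. A fit to these arrays assumes that the lone KO array varies like the others. Without KO array 3 alone, the array with high Gapdh and Actb ratios, the 10 differed by -0.39 (Cd36) to -1.97 (Cidea), with a median of -0.94, and 0 of the 10 passed. With the log2 Gapdh ratio as a covariate the 10 genes differed by -0.18 (Plin3) to -1.16 (Cidea), and 0 of all genes passed (limma; 2 of the 10 and 10.2% of all genes had an unadjusted p under 0.05). Without KO array 1 the differences grew to -3.24 for Cidea, -2.69 for Muc1, -2.16 for Xdh, -1.54 for Fabp3 and -1.24 for Plin2. These 5 passed over all genes (limma adjusted p = 0.0105 to 0.0484), where 5.07% of genes were called lower, but both KO arrays left had a Gapdh ratio above every wild-type array.

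**Figure D3:**
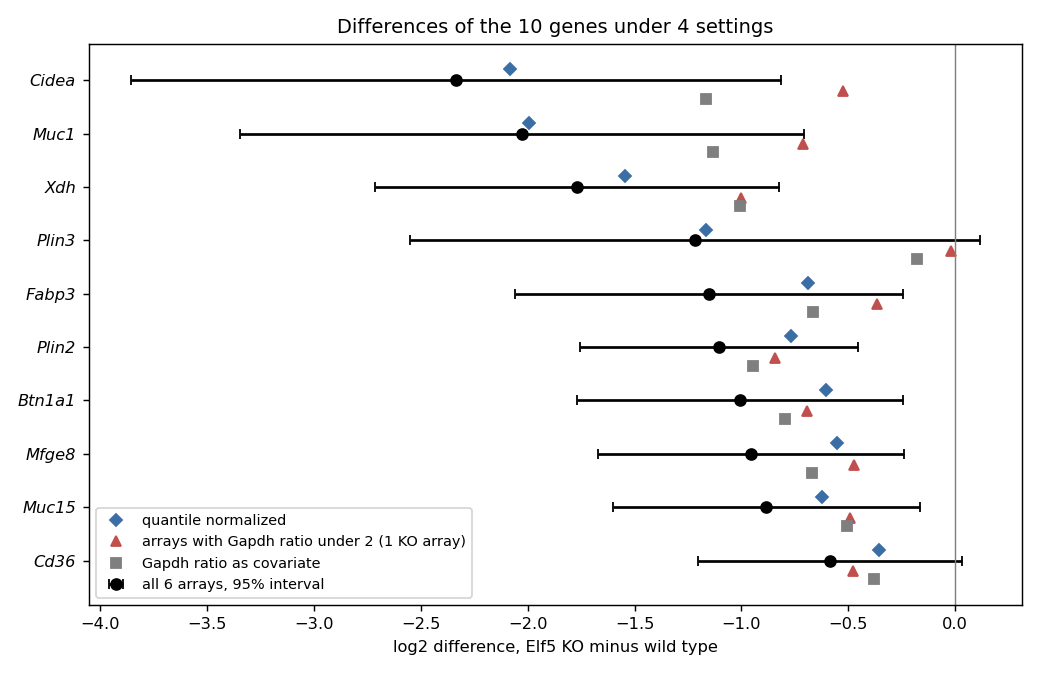
Log2 difference of each gene, Elf5 KO minus wild type, over all 6 arrays with its 95% interval (black), after quantile normalization (diamonds), over the 4 arrays with a Gapdh ratio under 2 (triangles) and with that ratio as a covariate (squares). Every symbol lies under 0, and Cidea, Muc1 and Plin3 move furthest toward 0 in the arrays with a low ratio.

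Luminal epithelial markers went both ways. Of 8 such genes 4 had a higher and 4 a lower mean (median difference 0.10, and -0.21 in the arrays with a low Gapdh ratio). Cldn7 and Cldn3, of tight junctions, differed by -1.22 and -0.96 (paired limma adjusted p = 0.0324 and 0.231). Cdh1 was higher by 0.93 (paired limma adjusted p = 0.0422). Cldn7, Cldn3 and Cdh1 lie outside the planned choice of named markers. The mean log2 signal of Krt8, Krt18 and Epcam was 11.51, 11.77 and 11.83 for wild-type arrays 1, 2 and 3, against 11.41, 12.06 and 12.31 for the KO arrays, 0.22 higher on average in the KO, which enlarges every difference taken against it. Set against this reference within each array, all 10 genes had a lower mean in the KO. Signals of different probe sets have no common scale, so only differences between arrays are read. Relative to it Xdh was at 1.87, 1.56 and 0.90 in wild type, against 0.74, -0.53 and -1.86 in the KO, and Plin2 at 2.55, 1.72 and 1.48 in wild type, against 1.36, 0.34 and 0.06 in the KO. These 2 genes kept the groups apart, with differences of -1.99 and -1.33 (two-sided exact permutation p = 0.1 each, the smallest that 3 against 3 arrays allow; 0.286 after Benjamini-Hochberg adjustment over the 10 genes). For the other 8 the groups overlapped, and the exact permutation p was 0.2 to 0.3. Against the mean of all 8 luminal markers, which differed by -0.05, all 10 genes again had a lower mean, but the groups overlapped in each of them (exact permutation p = 0.2 to 0.4), with differences of -1.72 for Xdh and -1.05 for Plin2. Against Krt8, Krt18 and Epcam KO array 1 was under the wild-type mean for 9 of the 10, from -0.71 for Xdh to -0.07 for Fabp3, and above it for Plin3 by 0.28. Of 6 caseins and whey proteins 6 had a lower mean in the KO (median -0.67; -0.35 in the arrays with a low Gapdh ratio and -0.09 after quantile normalization). None of the 6 passed (limma; 0 had an unadjusted p under 0.05), and 3 did in the paired fit.

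Promoter sequences are shown for 4 of the genes that fell together in the paired fit, with the ETS core that Elf5 and its relatives recognise in capitals. RefSeq's table for GRCm38.p6 held a start site for 6 of the 10 genes, and the 250 bases before it were searched on both strands. For Plin2 and Cd36 this start site lies inside the annotated gene. The Plin2 window thus overlaps the gene (chr4:86626910-86670217), and the Cd36 window lies wholly within its gene (chr5:17781690-17888959). The lines give the sequence 5′ to 3′ along the gene, and capitals mark GGAA or its complement TTCC.
Plin2: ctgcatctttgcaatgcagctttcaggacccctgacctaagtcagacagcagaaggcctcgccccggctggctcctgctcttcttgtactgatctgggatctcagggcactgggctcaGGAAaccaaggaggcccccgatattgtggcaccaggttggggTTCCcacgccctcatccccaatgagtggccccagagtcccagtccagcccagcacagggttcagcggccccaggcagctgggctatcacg
Mfge8: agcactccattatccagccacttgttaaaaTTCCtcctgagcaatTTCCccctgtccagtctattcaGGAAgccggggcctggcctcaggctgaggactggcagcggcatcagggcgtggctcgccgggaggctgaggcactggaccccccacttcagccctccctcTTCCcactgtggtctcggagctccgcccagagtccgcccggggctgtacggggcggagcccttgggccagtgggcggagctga
Muc1: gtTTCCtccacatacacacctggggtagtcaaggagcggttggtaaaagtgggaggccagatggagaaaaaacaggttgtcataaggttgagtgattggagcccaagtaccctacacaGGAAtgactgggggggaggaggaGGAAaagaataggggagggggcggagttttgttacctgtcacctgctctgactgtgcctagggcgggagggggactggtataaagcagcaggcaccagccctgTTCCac
Fabp3: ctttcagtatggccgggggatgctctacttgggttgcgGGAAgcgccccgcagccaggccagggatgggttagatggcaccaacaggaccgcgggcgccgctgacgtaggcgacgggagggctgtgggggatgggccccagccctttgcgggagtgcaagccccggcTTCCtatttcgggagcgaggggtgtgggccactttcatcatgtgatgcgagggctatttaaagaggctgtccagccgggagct
The Plin2 window lies at chr4:86670060-86670309 on the minus strand, that of Mfge8 at chr7:79149061-79149310 on the minus strand, that of Muc1 at chr3:89228806-89229055 on the plus strand and that of Fabp3 at chr4:130308488-130308737 on the plus strand. The core matched 2 times in Plin2, 4 times in Mfge8, 4 times in Muc1 and 2 times in Fabp3. It also matched 2 times in Plin3 and 6 times in Cd36, the gene with the smallest difference. These 4 letters are common: 93.4% of the 32851 promoter windows in the table held at least 1 match. The Stat5 site TTCNNNGAA and the PPAR direct repeat (AGGTCA, any 1 base, AGGTCA) were in none of the 6 windows, and were in 7.02% and 0.0335% of all windows. A match is no evidence of binding.

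Other proteins of lipid droplets went both ways. Of 25 listed genes 21 were tested; 12 were lower and 9 higher, with a median of -0.24, and none passed (limma; 7 had an unadjusted p under 0.05). In the paired fit 4 fell and 3 rose, where 7.7% of all genes were called higher. Rab18, a small GTPase of the droplet surface, read 10272, 9384 and 6492 in wild type, against 4694, 2580 and 1793 in the KO (-1.61 ± 0.38, SE; limma adjusted p = 0.0655, and 0.0121 in the paired fit). Its dimmer probe set differed by -3.10. G0s2, an inhibitor of the lipase Pnpla2, differed by -1.38 ± 0.39 (limma adjusted p = 0.0933, and 0.0121 in the paired fit). Pnpla3, a lipase relative, was higher by 1.21 ± 0.33 (limma adjusted p = 0.0881, and 0.0483 in the paired fit). In the arrays with a low Gapdh ratio Rab18 differed by -0.86, G0s2 by -0.69 and Pnpla3 by 0.81. The perilipins Plin4 and Plin5, chosen after their values were seen, also rose in the paired fit. Plin4 read 340, 1067 and 981 in wild type, against 1137, 2807 and 3233 in the KO. Plin5 read 22.4, 34.7 and 54.1 in wild type, against 64.3, 78.6 and 400 in the KO. Wild-type arrays 1 and 2 were under 43.8 for Plin5, and the 400 is of KO array 3. Plin4 and Plin5 differed by 1.59 and 1.51, and by 0.67 and 0.64 in the arrays with a low Gapdh ratio. On these probe sets both were higher in all 3 KO arrays, opposite in direction to Plin2 and Plin3, while a dimmer probe set of Plin5 differed by 0.18. Adipocyte markers, whose sums are given with Cd36, were higher in the same arrays, and their part in Plin4 and Plin5 was not tested.

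Among other proteins of the globule membrane and of apical secretion, 24 of 25 listed genes were tested. A lower mean was found for 16 and a higher one for 8, with a median of -0.54, and none passed (limma; 11 had an unadjusted p under 0.05). The paired fit called 4 lower and 2 higher. Abcg2, the transporter that puts riboflavin and drugs into milk, read 8015, 6011 and 6586 in wild type, against 4202, 2096 and 2564 in the KO (-1.27 ± 0.32, SE; limma adjusted p = 0.0777, and 0.0136 in the paired fit). Slc34a2, the apical phosphate transporter, differed by -1.75 ± 0.47 (limma adjusted p = 0.0862, and 0.0121 in the paired fit). Anxa2, a membrane-binding annexin found in the globule coat and in many stromal cells, was higher by 1.03 ± 0.29 (limma adjusted p = 0.0933, and 0.0367 in the paired fit). The folate-binding Folr1, chosen after its values were seen, had a profile like that of Cidea: it read 18072, 7417 and 7546 in wild type, against 7412.5, 1366 and 699 in the KO. Folr1 differed by -2.37, and by -0.44 in the arrays with a low Gapdh ratio. There Abcg2 differed by -0.70, Slc34a2 by -0.89 and Anxa2 by 1.10.

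Genes of fatty acid uptake and binding showed no common direction. Of 17 listed genes 12 were tested; 7 were lower and 5 higher, with a median of -0.04 that became 0.22 after quantile normalization, and none passed (limma; 4 had an unadjusted p under 0.05). In the paired fit 0 fell and 2 rose. These were Slc27a1, a fatty acid transport protein of fat and muscle (1.09 ± 0.31, SE; limma adjusted p = 0.0360 in the paired fit, and -0.04 on a dimmer probe set), and Cav1, the caveolar coat protein (1.19 ± 0.37). Slc27a4 differed by -1.03 ± 0.42 (SE; limma adjusted p = 0.195). In the arrays with a low Gapdh ratio Slc27a1 differed by 0.95, Cav1 by 0.91 and Slc27a4 by -0.33. The relatives of Fabp3 were chosen after their values were seen. Fabp5 differed by -0.07 ± 0.35 (SE; 0.32 after quantile normalization), and by -0.40 on a dimmer probe set. Fabp4 differed by 0.20 ± 0.25 (SE; 0.64 after quantile normalization), and by 0.47, 0.47 and 1.49 on its 3 dimmer probe sets. Whether Fabp3 differs from them was not tested.

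Of 16 listed regulators of droplet and milk genes 14 were tested, Elf5 among them; 11 were lower and 3 higher, with a median of -0.52, and none passed (limma; 5 had an unadjusted p under 0.05). In the paired fit 3 fell, namely Elf5, Stat5a and the kinase Akt1, and 1 rose. Stat5a, the mediator of the prolactin signal, read 2444, 1654 and 1842 in wild type, against 905, 676 and 288 in the KO (-1.77 ± 0.42, SE). Akt1 differed by -2.11 ± 0.53 (SE). In the arrays with a low Gapdh ratio Stat5a differed by -1.10 and Akt1 by -0.94. The gene that rose was Pparg, the nuclear receptor that drives adipocyte genes, at 196, 214 and 380 in wild type, against 432, 849 and 621 in the KO (1.23 ± 0.36, SE; limma adjusted p = 0.0392 in the paired fit). It was higher by 0.74 in the arrays with a low Gapdh ratio. Pparg is also an adipocyte marker of the list above.

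**Figure D4:**
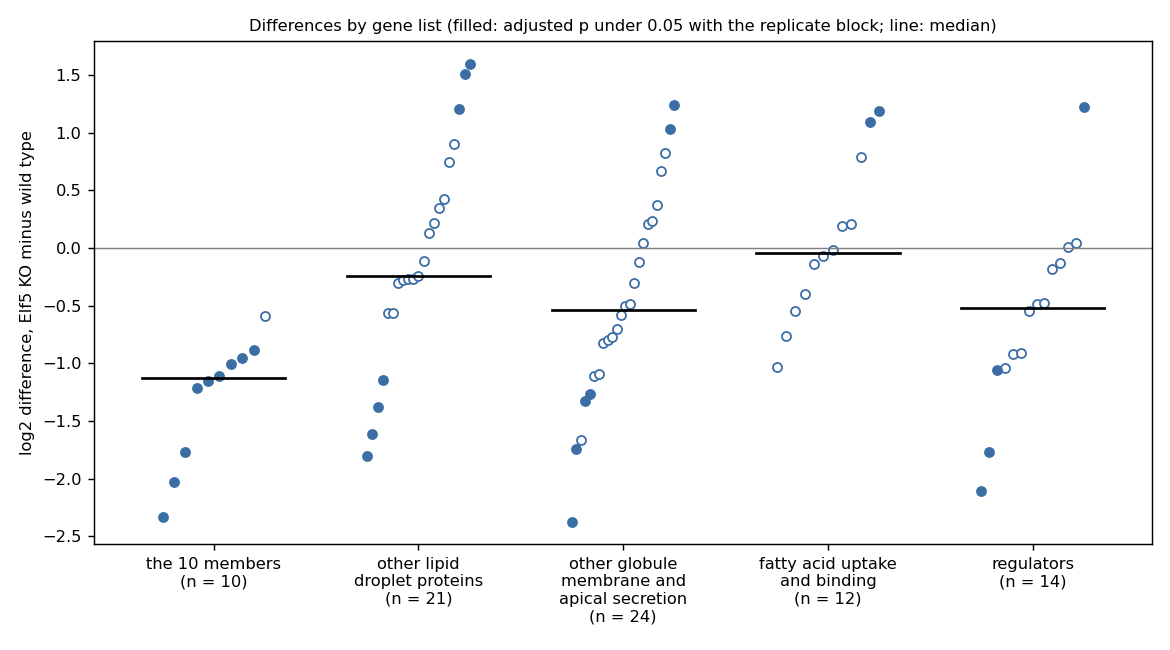
Log2 difference of every tested gene, Elf5 KO minus wild type, in the 10 genes described and in the 4 related lists; filled points passed in the paired fit (limma adjusted p under 0.05) and lines are medians. The 10 genes all lie under 0 with a median of -1.13, while each related list holds genes on both sides of 0.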

How the data were processed

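RNA of whole glands (3 wild type, 3 Elf5 KO) was hybridised to Affymetrix mouse arrays, 1 per sample. The authors deposited linear signal intensities for 45101 probe sets, for which the submitters' processing notes name MAS5 and affy; no version or genome build is given there. The values show a mean of 150 in every array after trimming 2% at each end. Precision is limited by the number of arrays.

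Gene names came from GEO's platform annotation. The probe set with the highest mean stood for a gene, and genes under the 40th percentile of mean log2 signal (a signal of about 43.8) were left out; all 10 members passed. Values were taken as log2(signal + 16), so fold changes of dim genes are understated, and compared with limma 3.58.1 in R 4.3.3 (intensity trend), with Benjamini-Hochberg adjustment over 10916 genes and a threshold of 0.05. For the dimmer probe sets of a member the adjustment is over the 17954 probe sets tested as features of their own. The fit was tested on simulated data.

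The labels do not say that replicate numbers pair the animals. Deviations from the group means correlated at 0.459, 0.336 and 0.291 for numbers 1, 2 and 3 and at no more than 0.149 between other numbers. Within a group these deviations sum to 0, so the correlations depend on each other. They come from the same arrays as the fits, and the paired fit is given beside the unpaired one. Alternatives were another normalization, pseudocount, filter or choice of probe set, the Gapdh ratio as a covariate, and leaving out arrays. The members and lists were chosen with earlier results of these data known. Named genes are the members, Elf5, the 3 genes of each related list with the smallest p, and cell type markers; others are said to be chosen later. Some list members were not analysed here.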

Additional observations from a re-analysis of the deposited data

How the results depend on the processing

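Of 19 alternatives 7 leave the differences as they are by construction (filters, no trend, every probe set, the block, means of linear signals); under the other 12 all 10 genes were lower. Of the 10 genes 0 passed in any of the 19, except with the replicate block (9) and without KO array 1 (5); leaving out 1 array at a time gave 0 to 5. Their median difference of -1.13 became -0.51 in the arrays with a Gapdh ratio under 2, a choice made after seeing the data, and lay between -1.39 and -0.79 when 1 array was left out. The number of all genes called, 135 in the main setting, was 1335 with the replicate block, 291 with median centring, 85 with a pseudocount of 1 and 56 without a filter. It was 0 with the Gapdh ratio as a covariate, in the arrays with a low ratio, and with every probe set as a feature, also with the block. Leaving out 1 array gave 0 to 1206 calls: 9, 0 and 1 without wild-type array 1, 2 or 3, and 1206, 1 and 6 without KO array 1, 2 or 3. Median centring moved the median of all genes from 0.06 to 0.28. Relative to all 8 luminal markers, a choice made after seeing the data, 0 of the 10 genes had groups apart, against 2 relative to Krt8, Krt18 and Epcam. The causes were not tested.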
